A study of Mus musculus with 12 samples.

Results

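The genes examined here are 9 components of interferon-γ (IFN-γ) signalling, namely Ifngr1, Ifngr2, Jak1, Jak2, Irf1, Irf5, Irf8, Socs1 and Socs3, taken by symbol from every deposited list of N4-acetylcytidine (ac4C) peaks. Of these 9 genes, 4 had a peak in at least 1 list, beside 1779 protein-coding genes with a peak in all the lists together. Cultured mouse peritoneal macrophages, phagocytes of the abdominal cavity, were sampled after 0, 24 and 48 h with IFN-γ. At each time there were 2 samples of RNA pulled down for ac4C and 2 of total RNA, 12 samples in all, and the results rest on 6 peak lists, 2 for each time. The labels give no strain, sex or age, do not say that the samples came from separate animals or cultures, and name no sample without IFN-γ at 24 h or 48 h, so IFN-γ and time elapsed cannot be told apart.

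IFN-γ binds a receptor made of the ligand-binding chain IFNGR1 and the signalling chain IFNGR2, which carry the kinases JAK1 and JAK2. Signalling through these kinases switches on a first wave of genes that includes the transcription factor gene Irf1. IRF8 and IRF5 are further factors of the same family in macrophages, and SOCS1 and SOCS3 are feedback inhibitors that act on the kinases and on cytokine receptors. The acetyl mark ac4C is written into RNA by the enzyme NAT10.

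A peak is a stretch of the genome where pull-down reads exceeded what the peak caller took as background, and its summit is the position of highest enrichment. The names list 1 and list 2 imply no order. The 0 h lists held 1151 and 946 peaks, those of 24 h 725 and 646, and those of 48 h 674 and 611. The peak numbers of every list run without a gap, so 0 peaks are missing from the lists as numbered. Relative depth was recovered from how the deposited fold and p of each summit go together, by way of the background in each list. It was not counted from reads, and the percentages assume that the peak caller was set alike for every list. Pull-down depth stood at 91.5% and 78.1% of the deepest list for 0 h, at 100% and 97.9% for 24 h, and at 77.9% and 68.6% for 48 h. For the control library, called input below, the 0 h lists stood at 100% and 91.4%, the 24 h lists at 73.7% and 80.8%, and the 48 h lists at 57.2% and 44.6%. Input coverage at a summit means the background that the peak caller took there. It was recovered from fold and p, not counted from input reads, and need not equal them. Of 12 macrophage marker genes 2 had a peak in any list (Itgam in 2 lists and Lyz2 in 1). Of 40 markers of other cell types 1 did, the mesothelial gene Wt1 in 1 list. Adgre1, Csf1r and Cd68 had none. The lists hold no level below their threshold, so these counts say little on which cells were present.

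Ifngr2 was the gene of the group with the recurrent and strong peak, and the peaks of Jak2, Irf1 and Irf5 were weaker and seen in fewer lists. The 4 genes with a peak made up 44.4% of the 9, against 8.12% of all 21896 protein-coding genes of a RefSeq table, which includes genes that macrophages do not express. Ifngr2 had a peak in 5 lists, Jak2 in 3, and Irf1 and Irf5 in 1 each. Among protein-coding genes with any peak, 7.93% had one in 5 or more lists, 24.7% in 3 or more, and 51.9% in 1 list only. By list, 2 and 1 of the 9 genes had a peak at 0 h, 1 and 2 in the lists of 24 h, and 2 in either list of 48 h. No peak of Ifngr1, Jak1, Irf8, Socs1 or Socs3 was present in any list, even when any overlap of gene and peak was counted. The absence of a peak is not a low transcript level or an absence of ac4C, since the depth at those genes is unknown.

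**Figure D1:**
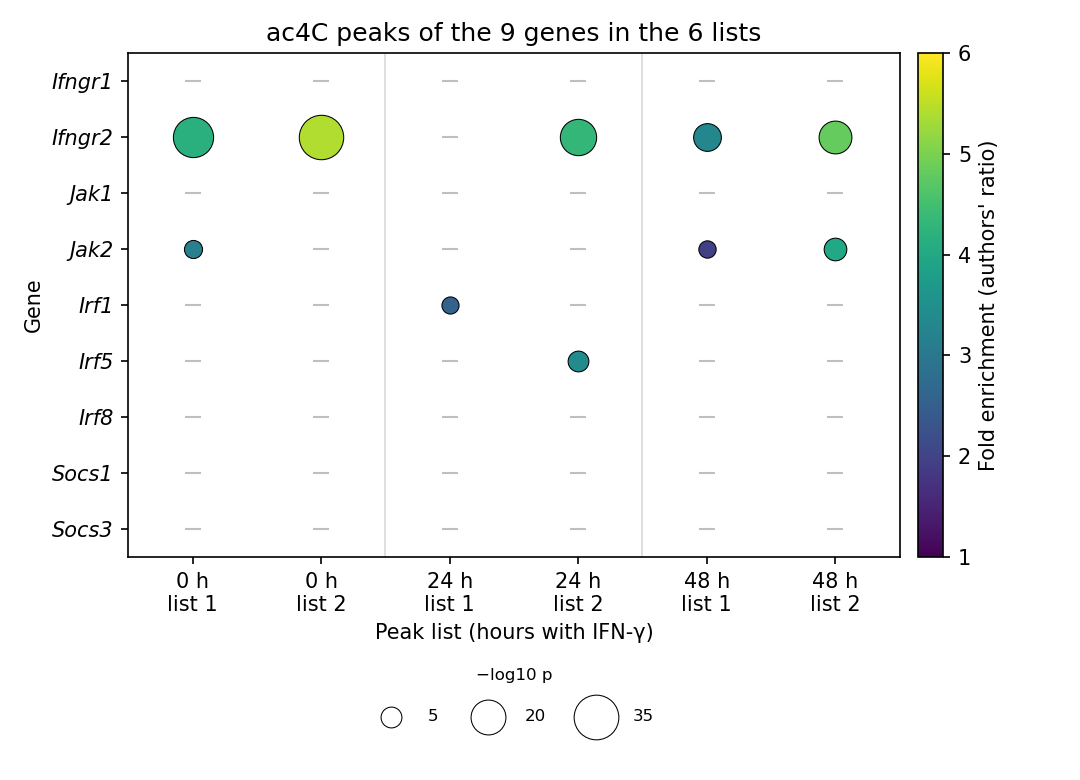
Peaks of the 9 genes (rows) in the 6 peak lists (columns, by hours with IFN-γ). Circle area grows with −log10 p of the strongest peak, colour gives the authors' fold enrichment, and a dash marks no peak; Ifngr2 fills 5 columns, Jak2 3, and Irf1 and Irf5 1 each.

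The peak of Ifngr2 (ENSMUSG00000022965) lay in the 3′ UTR at the same place in all 5 lists that hold it. Merged over the lists it ran from 91360499 to 91360868 on chromosome 16 (GRCm39), 369 bases, of which 220 bases were covered in each of the 5 lists. Any pair of the 5 peaks shared at least 88.0% of the shorter one over the 10 pairs, and their summits lay 2 to 41 bases apart. The summits fell 1819 to 1860 bases before the annotated end of the gene, which runs from 91343960 to 91362511 on the plus strand. The strand of the pulled-down RNA is not recorded in the lists. Of the 2808 merged regions of the whole series, 4.56% were held by 5 or more lists.

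Fold enrichment of the Ifngr2 peak, the authors' ratio of pull-down over background at the summit, was 4.17 and 5.40 at 0 h, 4.32 in 24 h list 2, and 3.32 and 4.81 at 48 h. Its −log10 p was 27.7 and 34.6 at 0 h, 22.0 at 24 h, and 11.5 and 17.3 at 48 h. The −log10 q, after the authors' correction for multiple tests, was lowest in 48 h list 1, at 6.29. These values belong to the peak within its list, and a deeper list gives a smaller p for an equal enrichment. Within its list the peak ranked 37 of 1151 and 24 of 946 by p at 0 h, 20 of 646 in 24 h list 2, and 80 of 674 and 34 of 611 at 48 h. As percentiles of −log10 p these were 96.9 and 97.6, then 97.1, then 88.3 and 94.6, all above the middle of the list, where 50 would stand.

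**Figure D2:**
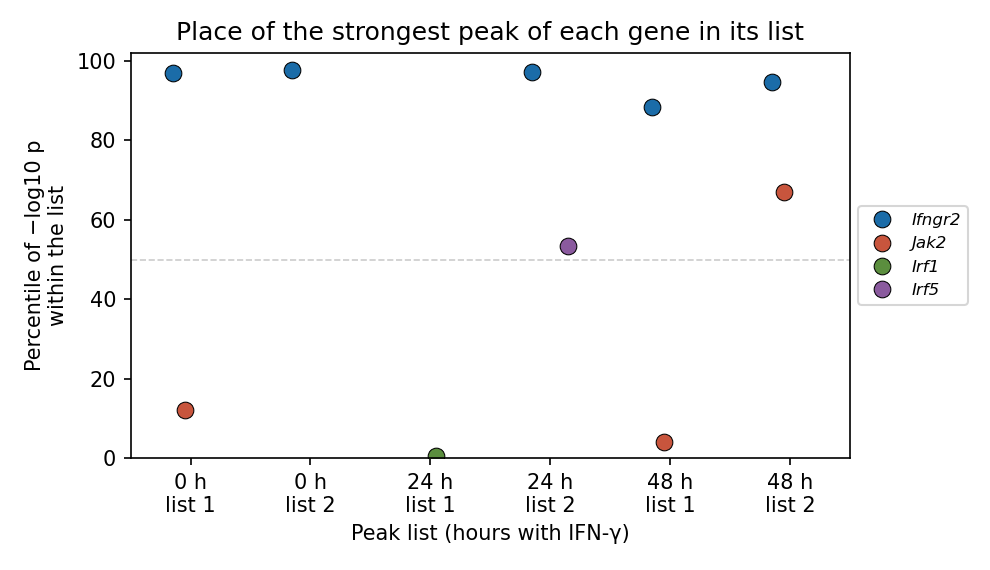
Percentile of −log10 p of the strongest peak of each gene among all peaks of its list (vertical axis) in the 6 lists (horizontal axis); the dashed line marks 50. Ifngr2 sits between 88.3 and 97.6, while Jak2 lies between 4.2 and 66.9, Irf1 at 0.5 and Irf5 at 53.5.

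Taken relative to depth, the heights of the Ifngr2 peak at the 3 times overlapped or lay close together. The summit held 198 and 176 pull-down fragments at 0 h, 197 in 24 h list 2, and 144 and 163 at 48 h. The input background of a list was the lowest input coverage shared by many of its summits, 27 to 54 by list. Divided by it, the pull-down coverage was 105.9 and 110.3 multiples at 0 h, 98.4 at 24 h, and 90.4 and 116.2 at 48 h. The 48 h values enclosed those at 0 h, with means of 103.3 ± 18.2 at 48 h and 108.1 ± 3.11 at 0 h (SD, n = 2 lists each), so no difference beyond the spread between lists was seen. Input coverage at the same summits was 24.5 and 19.3 multiples at 0 h, 21.6 at 24 h, and 25.7 and 22.0 at 48 h, again with overlap. No list without a peak enters these values.

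The single list without an Ifngr2 peak was 24 h list 1, which had the deepest pull-down by the recovered depth. Its nearest peak to the Ifngr2 region lay 3831204 bases away, at Bach1. With the input coverage seen in the other lists, 72 to 89 fragments would have reached p of 0.005, close to the lowest significance in the lists. The pull-down heights of the other 5 lists amount to 185 to 237 fragments at the depth of that list. The coverage of 24 h list 1 at this place was not analysed here, so whether the signal of the 24 h lists differed at Ifngr2 is not known. The lists differ in whether a peak was called, and neither can be preferred.

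24 h list 2 held a further Ifngr2 peak in the 3′ UTR, from 91360087 to 91360334, 165 bases before the recurrent region. It was weak, with a fold of 1.78, a −log10 p of 3.21 and a q of 1, at percentile 23.4 of its list. No other list had a peak there. By the bases covered with peaks, Ifngr2 had 0 and 476 at 24 h and 244 and 329 at 48 h, against 369 and 283 at 0 h. The mean was 262 ± 199 over the 4 later lists and 326 ± 60.8 over the 2 lists of 0 h, a difference of -63.75 bases (SD; two-sided exact permutation p = 0.733, adjusted p = 1.0 over 2061 genes, where the smallest p possible is 0.067). Without 24 h list 1 the difference was 23.67 bases.

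**Figure D3:**
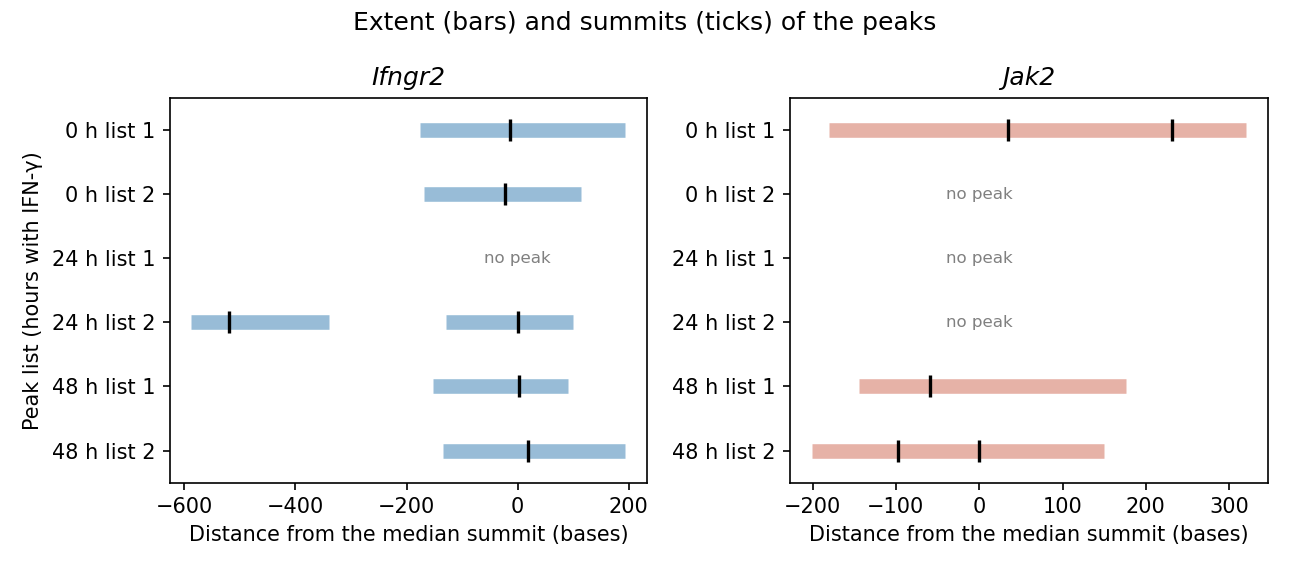
Extent of each peak (bars) and its summits (ticks) for Ifngr2 and Jak2 in the 6 lists, as distance in bases from the median summit of the strongest peaks of the gene. The Ifngr2 bars stack on 1 place in 5 lists, with 1 further bar in 24 h list 2; the Jak2 bars of 0 h list 1 and both 48 h lists overlap and their summits spread more.

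Jak2 (ENSMUSG00000024789), the kinase carried by the IFNGR2 chain, had a 3′ UTR peak in 0 h list 1 and in both 48 h lists, and none in 0 h list 2 or at 24 h. The merged region ran from 29289654 to 29290175 on chromosome 19, with 294 bases shared by the 3 lists. The strongest summits lay 59 to 291 bases apart, more widely than those of Ifngr2. Fold enrichment at the strongest summit was 1.97 and 3.997 at 48 h, against 3.15 in 0 h list 1. The −log10 p was 2.43 and 6.50 at 48 h, against 2.97 in 0 h list 1. The −log10 q was 1.73 in 48 h list 2, and the q was 1 in 48 h list 1 and in 0 h list 1, so that 1 of the 3 peaks passed a q of 0.05. In percentiles of its list the peak stood at 4.2 and 66.9 at 48 h, against 12.2 at 0 h. The 0 h value lay between those of 48 h in fold, −log10 p and percentile.

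A gene was counted as gained between 2 times when both lists of the later time held a peak of it and neither of the earlier did, and as lost when the reverse held. Jak2 was gained at 48 h against 24 h, as were 2.47% of the 1779 coding genes found in any list. Of the 4 genes of the group with a peak in any list it was the only one. The call ended at a q of 0.05 or less, at a fold of 4 or more, at equal list length and at matched input coverage. The peak of 48 h list 1 was lost under each of these settings, and that of 48 h list 2, whose fold was 3.997, also at a fold of 4 or more. Covered bases were 0 in both 24 h lists and 320 and 351 in the 48 h lists, against 500 and 0 at 0 h. The later lists averaged 168 ± 194 bases and the 0 h lists 250 ± 354 (SD, n = 4 and 2), a difference of -82.25 (two-sided exact permutation p = 0.6, adjusted p = 1.0 over all genes). Without 0 h list 1 the sign of the difference turned, to 167.75 bases.

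Pull-down coverage and recovered input coverage at the Jak2 peak were both higher in the 48 h lists than in 0 h list 1. Input is here the background taken by the peak caller, not input reads counted at the summit. The strongest summit of the Jak2 peak held 57 and 55 pull-down fragments at 48 h, against 13 at 0 h. In multiples of the input background this was 35.8 and 39.2 at 48 h, against 7.0 at 0 h. The input coverage there was 17.1 and 7.8 multiples at 48 h, against 1.4 at 0 h. In 48 h list 1, 48 fragments also fitted less closely, with 30.1 and 14.3 multiples in pull-down and input. At 0 h, 16 fragments did, with 8.6 and 1.9 multiples. At the other summit of the 0 h peak, pull-down and input stood at 9.1 and 2.5 multiples. At the other summit of 48 h list 2 they stood at 33.5 and 13.7. With 1 list at 0 h and summits at different positions there is no test of this difference. In bulk RNA more cells with the transcript and more transcript per cell cannot be told apart. The part of transcript level in the presence of the peak was not tested.

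**Figure D4:**
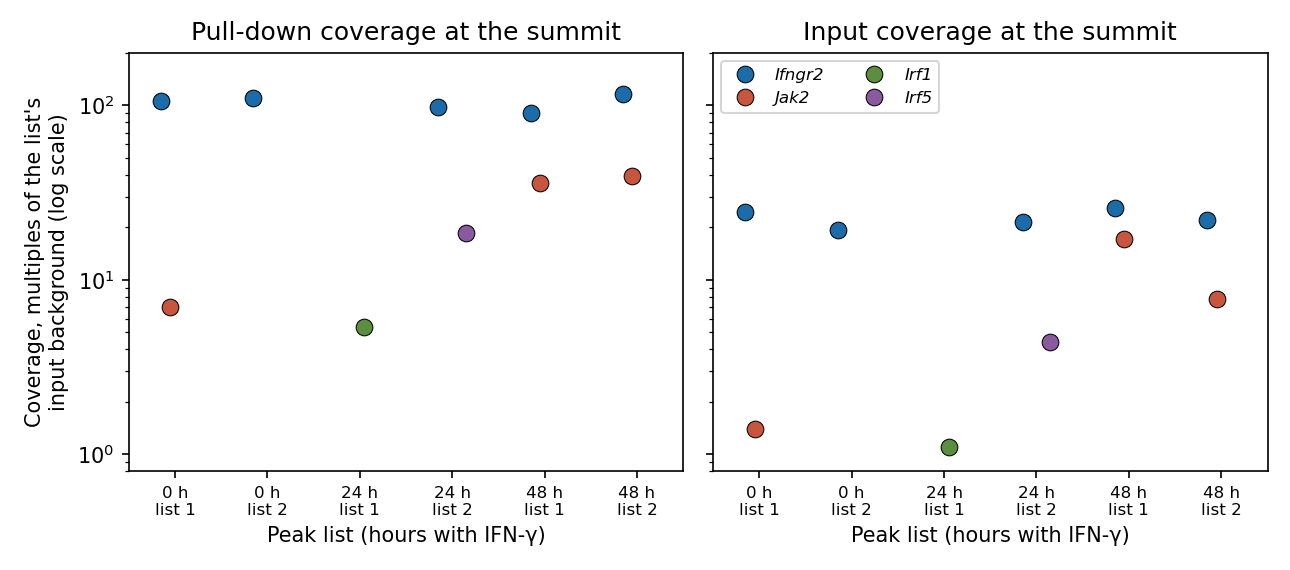
Pull-down (left) and input (right) coverage at the strongest summit of each gene in the 6 lists, on a log scale. The unit is the input background of the list, the lowest input coverage shared by many of its summits. Both coverages were recovered from fold and p, and input is the background taken by the peak caller. Ifngr2 stays between 90.4 and 116.2 in pull-down and between 19.3 and 25.7 in input; Jak2 is higher in the 48 h lists than in 0 h list 1 in both panels.

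Of the 3 interferon regulatory factor genes of the group, Irf1 and Irf5 had a peak in a single 24 h list each, and Irf8 had none. Irf5 (ENSMUSG00000029771), a factor of inflammatory cytokine genes, had a peak in 24 h list 2 from 29536699 to 29536930 on chromosome 6. The centre lay in the last exon and the end in the 3′ UTR, with the summit 494 bases before the annotated gene end. Its fold was 3.39, its −log10 p 4.95 and its −log10 q 0.56, on 37 pull-down fragments. Irf1 (ENSMUSG00000018899), a gene of that first wave, had a peak in 24 h list 1 from 53667190 to 53667648 on chromosome 11, also centred in the last exon and ending in the 3′ UTR. That peak ranked 721 of 725, with a fold of 2.55, a −log10 p of 2.32 and a q of 1, on 11 fragments. Input coverage at the Irf1 summit was 1.1 multiples of the background, at percentile 8.4 of all summits of the list, whose median was 7.0. Neither gene had a peak in the other 24 h list, so neither was gained. Their covered bases gave exact permutation p of 1.0. With a peak in 1 later list only, the test can give no other value, so it says nothing on these genes.

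Of the 11 peaks of the group, 9 were centred in a 3′ UTR and 2 in a last exon. In the whole lists the 3′ UTR held 37.8% to 59.4% of peaks. The 9 come from 2 genes and 3 places, so they are not separate cases. A q of 0.05 or less was met by 6 of the 11 peaks, 5 of them on Ifngr2. The share of all peaks that met it is not given here, so the count describes these 11 peaks only. The q was 1 for 4 of the 11, and for 25.0% to 45.4% of all peaks by list, so a q of 1 is common in these lists.

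Against 0 h, 0 of the 4 genes with a peak were lost or gained at 24 h. Of the 1779 coding genes with a peak in any list, 8.66% were lost and 2.42% gained. The other 5 of the 9 had no peak in any list and could not be called. Only Ifngr2 had a peak in both 0 h lists, so no other gene of the group could be lost. The counts of the group are too small to set against these shares. At 48 h 0 of the 4 were lost or gained against 0 h, beside 7.93% lost and 2.47% gained. The losses numbered 154 genes for 24 h and 141 for 48 h, and the gains 43 for 24 h and 44 for 48 h. With lists of equal length the losses were 79 and 64 and the gains 60 and 58 for the same times, so the excess of losses was smaller. Leaving out 1 list raised the losses to as many as 476 for 24 h and 440 for 48 h, and the gains to as many as 234 for 24 h and 225 for 48 h. Both comparisons share the 0 h lists. Between 48 h and 24 h 0 of the 4 were lost, beside 2.64% of the 1779 genes. None of the 4 had a peak in both 24 h lists, as a loss would require. Over all 2061 genes, 0 passed an adjusted exact permutation p of 0.05 for covered bases in the later lists against 0 h (0%), and 0 had an unadjusted p under 0.05, which 2 lists against 4 cannot reach.

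Other genes of the pathway had peaks in 10 of 62 cases, 16.1%. In the JAK-STAT core, Stat6, the factor of IL-4 signalling, had a peak. It lay in the 5′ UTR in both lists of 24 h and of 0 h, at folds of 4.65 and 2.31 at 24 h, against 2.23 and 2.58 at 0 h, and in neither 48 h list. Among 9 other genes of the IRF family and its partners 2 had a peak, Irf2bp2 in all 6 lists and Irf2bpl in 3, both co-repressor genes and neither an IRF. Irf2bpl had the same lists as Jak2, 0 h list 1 and both 48 h lists, with folds of 3.31 and 3.04 at 48 h, against 2.24 at 0 h. Of 17 further SOCS genes and negative regulators only Ptprc did, the gene of the leukocyte phosphatase CD45, in all 6 lists.

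Among 13 related receptor genes, 4 had a peak. Il10rb, the gene of the accessory chain of the receptor for IL-10, had one in both 0 h lists and in none later. Its 3′ UTR region ended 137.8 kb before that of Ifngr2, and its folds were 2.67 and 4.13. Csf2ra, the α chain of the GM-CSF receptor, had a last-exon peak in both 48 h lists and in 24 h list 1, at folds of 5.63 and 4.78 at 48 h, against 3.25 at 24 h. Il6ra and Il6st, the chains of the IL-6 receptor, had a peak in 1 list each. Among the cofactor genes, Cebpb had a 3′ UTR peak in every list except 24 h list 2. Of the 62 genes only the 10 with a peak could be called. At 24 h against 0 h, 1 was lost and 0 gained, beside 8.66% and 2.42% of the 1779 coding genes with a peak. At 48 h against 0 h, 2 were lost and 1 gained, beside 7.93% and 2.47%. At 48 h against 24 h, 1 was lost and 1 gained, beside 2.64% and 2.47%.

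The pattern of Ifngr2, a peak in every list but 24 h list 1, was shared by 10 other protein-coding genes. Ranked by how near the mean percentile of their strongest peak came to the 94.9 of Ifngr2 over the 5 lists, the first was Atp6v1g1, a subunit gene of the vacuolar proton pump, at 88.3. Rab1a, a small GTPase of vesicle transport, followed at 84.2 and the splicing factor gene Srsf6 at 77.3. Prr13 stood at 62.9 and the chemokine receptor gene Cxcr4 at 60.4. Jak2 shared its lists with 14 genes, of which Mak16 and Tti2 came nearest to its mean percentile of 27.8, both at 26.4.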

How the data were processed

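BWA 0.7.12, MACS2 2.1.0 and the mouse build GRCm39 are named, per the submitters' processing notes; settings and the control library of a list are not stated there. The 6 deposited lists hold the authors' fold enrichment, a ratio, and p and q as −log10, per the file headers, with the authors' gene annotation. Starts and ends are printed as deposited and may be off by 1 base. A peak was 1 region, its strength that of its best summit, and a gene had it when its centre lay in the gene. Peaks were merged at an overlap of 1 base.

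Depth was recovered by finding, within 0.005 of −log10 p, the whole number of pull-down fragments and the factor of the list that give the authors' fold and p; 100.0% of summits matched, 81.7% to 91.2% of them by 1 number alone. The solving step was checked on lists simulated under the same formula. That check does not test whether the peak caller used the formula. Of 2061 symbols, protein-coding ones were taken from RefSeq (GRCm38.p6), used for names only. Matched input coverage scaled fragments and input to the shallowest list and kept summits at p of 0.005 or less.

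Exact permutation tests ran over the 15 choices of 2 lists, with Benjamini-Hochberg adjustment. The genes and lists were chosen with earlier results of these data known. Named pathway genes were those of 5 lists with a peak in any list; some are not reported here. Python 3.11.15, pandas 2.3.3 and SciPy 1.17.1 were used.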

Additional observations from a re-analysis of the deposited data

How the results depend on the processing

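The number of the 9 genes with a peak was 4 as deposited, 2 at a q of 0.05 or less, and 1 at a q of 1e-05 or less or a fold of 4 or more; the sum of their lists was 10, 6, 5 and 4 in that order. Ifngr2 kept 5 lists at both q thresholds, with lists cut to 611 peaks and with input coverage matched; a fold of 4 or more left it 4. At a q of 0.05 or less 2 merged regions were left of 5. The share of all coding genes that kept a peak at these thresholds is not given here. The gain of Jak2 at 48 h against 24 h gave 0 genes called under both q thresholds, the fold threshold, equal list length and matched input coverage. Over all coding genes, a q of 0.05 or less left 101 lost and 11 gained at 24 h against 0 h (154 and 43 as deposited), 97 and 18 at 48 h against 0 h (141 and 44), and 16 and 20 at 48 h against 24 h (47 and 44). Equal list length gave 79 and 60, 64 and 58, and 36 and 42 in the same order, and matched input coverage 122 and 27, 99 and 45, and 22 and 44. Leaving out 1 list gave 0 to 2 of the 9 genes called at 24 h against 0 h, 0 to 1 at 48 h against 0 h, and 1 to 3 at 48 h against 24 h: without 24 h list 2, Ifngr2 was lost and Irf1 gained at 24 h, among 196 coding genes lost and 234 gained; without 24 h list 1, Irf5 was gained at 24 h, among 200; without 0 h list 2, Jak2 was lost at 24 h, among 476; and without 0 h list 1, Jak2 was gained at 48 h against 0 h, among 79. Such calls were thus more common over all genes than with every list. The difference in covered bases, later lists minus 0 h, turned for Jak2 to 87.75 at a q of 0.05 or less, at equal list length and at matched input coverage, where 48 h list 2 alone kept its peak. Leaving out 1 list it ranged from -332.25 to 167.75 for Jak2 and from -135 to 23.67 for Ifngr2. Irf1 gave no value under 6 settings, Irf5 under 4 and Jak2 under 2, where no peak was left. The gene assignment changed none of the 9 genes' calls. No paired analysis was possible because the list numbers name no sample. Depth limits what the 5 genes without a peak can show.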
